A study of Mus musculus with 48 samples.

Results

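Among 48 single mouse cells taken after a pulse of Mesp1 in differentiating embryonic stem cells, 4 carried high transcript levels of both Zfp42 and Tdh, and they are described here against the other 44. They were chosen by 2 measured values, Zfp42 at 100 FPKM or more and Tdh at 20 FPKM or more, where FPKM is the number of fragments scaled to transcript length and library size. Zfp42, also called Rex1, encodes a zinc finger protein long used as a mark of undifferentiated embryonic stem cells. Tdh encodes threonine dehydrogenase, the mitochondrial enzyme through which mouse embryonic stem cells break down threonine. The chosen cells bear the labels C05, C09, C32 and C38 and are called the Zfp42/Tdh cells below, after the genes of the rule.

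All 48 cells came from mouse embryonic stem cells of strain 129P2/OlaHsd in which doxycycline turns on Mesp1, a transcription factor of nascent cardiovascular mesoderm. The cells were differentiated as embryoid bodies, received doxycycline at 500 ng/ml between day 2.25 and day 3.25, and were dissociated on day 4. Live cells, those that excluded propidium iodide, were sorted and captured one by one on a Fluidigm C1 microfluidic chip. The labels call every cell induced mesoderm, give 1 group and name no culture or clone, and cells without doxycycline were not analysed here. The Zfp42/Tdh cells and the other cells therefore share genotype, agent, dose and day, and the values below describe cells of 1 sample and not replicates of a condition. Since the same cells' values chose the sides, no test was run and no p-value is given.

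Naive pluripotency is the state of the preimplantation epiblast and of mouse embryonic stem cells kept in leukaemia inhibitory factor. It rests on transcription factors such as Esrrb, Klf2, Klf4, Tfcp2l1, Tbx3 and Nanog, which act beside Pou5f1 (Oct4) and Sox2. As cells leave this state, Zfp42, Dppa3 and Esrrb are shut off first, while Pou5f1 persists into the primitive streak and is lost as mesoderm forms. Primordial germ cells, which arise near the streak, carry several of the same genes, among them Dppa3 (Stella), Nanog and Pou5f1, together with germ line factors such as Prdm1, Tfap2c, Nanos3 and Dnd1.

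The promoters of 3 of the genes are shown because each was among the 25 with the largest difference and holds a motif of a factor family named in these results. They are from RefSeq on GRCm38.p6, run 5′ to 3′ from 250 bases before the annotated start to 50 after it, and carry every motif match in capitals.
Zfp42, chr8:43306960-43307259, minus strand: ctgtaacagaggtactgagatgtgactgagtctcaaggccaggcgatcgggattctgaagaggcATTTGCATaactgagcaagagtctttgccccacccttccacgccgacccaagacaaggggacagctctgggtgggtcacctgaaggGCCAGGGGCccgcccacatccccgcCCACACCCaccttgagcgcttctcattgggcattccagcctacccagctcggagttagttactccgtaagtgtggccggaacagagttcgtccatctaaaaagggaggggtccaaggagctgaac
Sox15, chr11:69654787-69655086, plus strand: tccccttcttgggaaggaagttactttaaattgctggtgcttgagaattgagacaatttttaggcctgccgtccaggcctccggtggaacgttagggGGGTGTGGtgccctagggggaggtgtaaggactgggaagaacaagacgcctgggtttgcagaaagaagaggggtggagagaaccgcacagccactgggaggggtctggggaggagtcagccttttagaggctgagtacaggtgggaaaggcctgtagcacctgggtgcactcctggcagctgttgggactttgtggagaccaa
Nanos3, chr8:84176503-84176802, minus strand: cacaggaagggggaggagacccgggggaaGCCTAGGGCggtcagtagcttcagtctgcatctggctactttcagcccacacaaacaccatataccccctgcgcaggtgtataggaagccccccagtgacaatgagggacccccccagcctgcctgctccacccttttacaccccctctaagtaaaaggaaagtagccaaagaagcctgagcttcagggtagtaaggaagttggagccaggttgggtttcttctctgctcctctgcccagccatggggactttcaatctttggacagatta
The motifs searched on both strands were the octamer ATGCAAAT of Oct factors, the Esrrb-type TCAAGGTCA, the KLF-type CCACACCC, the SOX-type AACAAT and the AP-2-type GCCNNNGGC, and none is contained in another. In the Zfp42 promoter the octamer starts 186 bases before the start, in its reverse complement, the AP-2-type match starts 100 bases before it and the KLF-type match 75 bases before it. Of the 25 genes, 17 were matched to 18 promoters in the RefSeq table. The octamer occurred in 1 of these 18 (5.56%), that of Zfp42, and in 1.74% of all 32851 promoters. Shares for the other motifs were 0% against 0.423% of all promoters for the Esrrb-type, 11.1% against 3.56% for the KLF-type, 5.56% against 10.7% for the SOX-type and 22.2% against 16.6% for the AP-2-type motif. The KLF-type matches were in Sox15 and Zfp42, and the AP-2-type matches in Ckb, Crip1, Nanos3 and Zfp42. Zfp42 is among the genes because the rule chose cells by it, so its matches say nothing of the rest. With 18 promoters a single match moves a share by 5.56 percentage points, so these shares are a description only. The median number of CpG dinucleotides per promoter was 11 for the genes and 7 for all promoters.

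Zfp42 was listed at 249.0, 102.7, 153.5 and 358.7 FPKM in C05, C09, C32 and C38, and at a median of 0 and a highest value of 10.4 FPKM in the other 44 cells. Tdh was at 326.3, 285.2, 20.5 and 62.9 FPKM in the same 4 cells, and at a median of 0 and a highest value of 59.2 FPKM in the other cells. These values chose the cells and are not a finding. Just inside the rule lay C09 for Zfp42 and C32 for Tdh. Just outside lay 1 cell, C65, with 10.4 FPKM of Zfp42 and 59.2 FPKM of Tdh, followed by C39 with 0.591 FPKM of Zfp42 and 16.2 FPKM of Tdh. A gap separates the sides on the Zfp42 axis, and Zfp42 alone, or the looser thresholds of 50 and 10 FPKM, gave the same 4 cells. On the Tdh axis there is no gap, since C65 lay above C32.

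**Figure D1:**
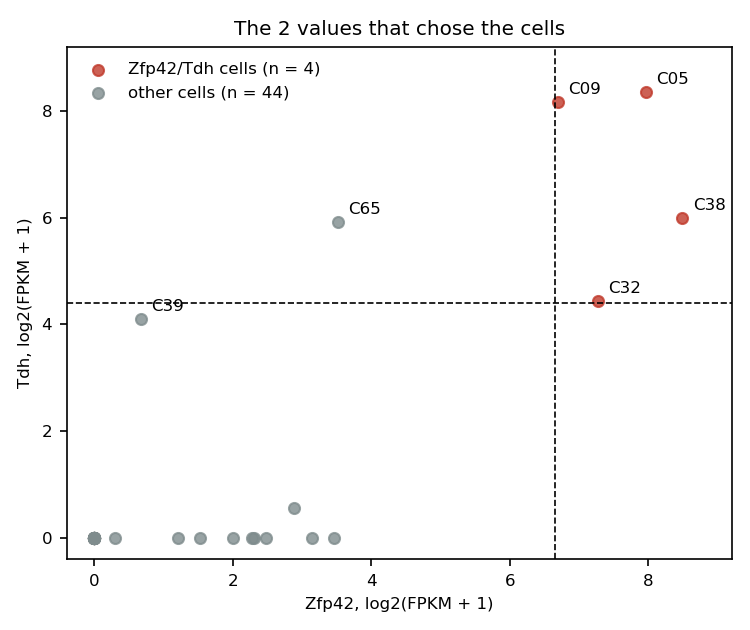
Each point is 1 cell, placed by Zfp42 (x axis) and Tdh (y axis) in log2(FPKM + 1). The 4 Zfp42/Tdh cells stand in the upper right, C65 (10.4 FPKM of Zfp42, 59.2 FPKM of Tdh) stands between them and the other cells, and most other cells are listed at 0 for both genes.

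The 4 libraries ranked 2, 9, 10 and 5 of 48 by the number of detected genes. At 1 FPKM or more, they held 6989, 6662, 6570 and 6761 genes in C05, C09, C32 and C38, against 4777 to 7003 (median 6194) in the other cells. Rows of very short RNAs, which FPKM can inflate, made up 68.6%, 68.4%, 74.0% and 2.69% of the summed FPKM in these cells, against a median of 10.4% in the other cells, of which 8 of 44 were over 50%. Without those rows the sums were 563287 to 595476 FPKM in the Zfp42/Tdh cells and 414465 to 703476 FPKM in the other cells. All 4 cells had a number up to 48 in their label, against 21 of 44 other cells. Whether the number of detected genes, the short-RNA share or the label number plays a part in the differences below was not tested, and values against other cells alike in these respects are given with the dependence on processing.

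Differences below are the mean log2(FPKM + 1) of the Zfp42/Tdh cells minus that of the other cells, and 4-fold means a difference of at least 2 on that scale, which understates the change of low genes. Of 11601 genes at 1 FPKM or more in at least 3 of the 48 cells, 357 (3.08%) were 4-fold or more higher in the Zfp42/Tdh cells and 78 (0.672%) were 4-fold or more lower. The median difference over all these genes was 0.09. Over all 22505 symbols without short RNAs the shares were 1.62% higher and 0.347% lower, and every list count below is set beside these. Of the 357 higher genes, 245 were detected in all 4 Zfp42/Tdh cells and 264 had all 4 above the median of the other cells. Of the 78 lower genes, 16 were detected in none of the 4 and 55 had all 4 below the median of the other cells. Without C09, 122 genes were lower, and without each of the other 3 cells in turn 108 to 116 were.

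In 10 genes (0.0862%) the lowest Zfp42/Tdh cell lay above every other cell, and in 1 gene (0.00862%) the highest lay below every other cell. Over all 22505 symbols without short RNAs, 0.0489% had the lowest Zfp42/Tdh cell above every other cell. The 10 were Zfp42 itself, which chose the cells, and Dppa3, Esrrb, Fbxo15, Gstm3, Inpp5d, Mageb16, Morc1, Tdrd12 and Tfap2c. Dppa3, Esrrb, Gstm3, Inpp5d, Mageb16, Morc1 and Tdrd12 were each detected in at most 2 other cells. They reached 1 FPKM in at least 3 cells only through the Zfp42/Tdh cells. The count of 10 rests on single cells: it was 42 without C09, 17 without C32 and 21 without C65 among the other cells. Inpp5d, which encodes the lipid phosphatase SHIP1, and Mageb16, an X-linked MAGE family gene, were named after their values were seen, as was the 1 lower gene, Mdk. Inpp5d was low in absolute terms, at 2.52, 3.02, 3.29 and 5.64 FPKM in C05, C09, C32 and C38 and at most 0.498 FPKM in any other cell. Mageb16 was at 0.324, 27.8, 9.57 and 24.9 FPKM in the 4 cells and listed at 0 in all 44 other cells.

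The largest difference belonged to Dppa5a, which encodes a KH-domain RNA-binding protein of pluripotent cells. It was listed at 3538, 1128, 1489 and 2591 FPKM in C05, C09, C32 and C38, against a median of 0 and a highest value of 1418 FPKM in the other cells. Dppa5a reached 1 FPKM in 17 of the 44 other cells, and only C65 among them lay within the range of the 4. Dppa3, a maternal and germ line chromatin factor, was among the most even of the leading genes, at 326.7, 284.2, 261.9 and 320.7 FPKM in the 4 cells, against a highest value of 110.5 FPKM in C65 and 10.97 FPKM in the next cell. Its mean log2(FPKM + 1) was 8.22 ± 0.15 in the Zfp42/Tdh cells (SD, n = 4 cells) and 0.24 ± 1.15 in the other cells (SD, n = 44 cells). Dppa4, a chromatin-associated protein of pluripotent and germ cells, was at 186.7, 132.8, 93.7 and 245.6 FPKM in the 4 cells, and was detected in 3 other cells, with 213.1 FPKM in C65.

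Utf1, a chromatin protein of undifferentiated stem cells, varied more among the 4. It was at 518.4, 36.7, 90.9 and 398.9 FPKM in C05, C09, C32 and C38, and was detected in 5 other cells at up to 74.5 FPKM. The low value of C09 falls within the range of the other cells. Tcl1, which encodes a coactivator of the Akt kinase, was also lowest in C09, with 54.5, 6.50, 85.7 and 90.1 FPKM in the 4 cells and 56.3 FPKM in C65, the only other cell in which it was detected. Fbxo15, an F-box gene known for its use as an embryonic stem cell reporter, was at 83.96, 32.8, 50.4 and 60.8 FPKM in the 4 cells and at most 13.7 FPKM elsewhere, so that the sides did not overlap. Sox15, a SOX-family factor of embryonic stem cells, was at 3.10, 16.7, 80.3 and 45.6 FPKM in the 4 cells and at 56.1 FPKM in C65, with no other cell at 1 FPKM.

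Genes better known from the germ line stood among the 25. Tfap2c, the AP-2γ transcription factor that helps specify germ cells, was nearly constant at 38.4, 38.9, 44.6 and 35.1 FPKM in C05, C09, C32 and C38, against a highest value of 16.4 FPKM in the other cells, where 3 of 44 reached 1 FPKM. On the log2(FPKM + 1) scale its mean was 5.33 ± 0.14 (SD, n = 4 cells) in the Zfp42/Tdh cells and 0.24 ± 0.88 (SD, n = 44 cells) in the other cells. Morc1, a repressor of transposons in male germ cells, was at 57.5, 15.6, 65.2 and 3.29 FPKM in the 4 cells and at most 0.120 FPKM in any other cell. Tdrd12, a Tudor-domain protein of the piRNA pathway that silences transposons, was at 53.4, 73.6, 34.1 and 26.4 FPKM in the 4 cells and at most 4.89 FPKM in the other cells. None of these 3 genes overlapped between the sides. Nanos3, an RNA-binding protein needed for germ cell survival, was at 31.005, 12.6, 74.3 and 5.295 FPKM in the 4 cells and was detected in 1 other cell, C65, at 18.3 FPKM.

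A further set of leading genes encode enzymes and metal-binding proteins. The metallothionein genes Mt2 and Mt1, whose products bind zinc and copper, were also detected in some of the other cells. Mt2 was at 470.3, 644.7, 59.9 and 242.5 FPKM in C05, C09, C32 and C38, and reached 259.6 FPKM in another cell, with 11 of 44 detected. Mt1 was at 431.8, 1761, 97.7 and 805.3 FPKM in the 4 cells, against a median of 0.775 and a highest value of 812.9 FPKM in the other cells, with 22 of 44 detected. Gstm3, a glutathione S-transferase, was far more restricted, at 249.5, 32.2, 56.6 and 70.5 FPKM in the 4 cells and at most 1.36 FPKM elsewhere. No other cell came near the lowest of the 4 for Gstm3. Crip1, a LIM-domain protein, was at 285.5, 196.6, 120.2 and 265.4 FPKM in the 4 cells, and overlapped with C65 alone, at 131.1 FPKM. Ckb, brain-type creatine kinase, was at 208.0, 27.1, 109.2 and 336.4 FPKM in the 4 cells, but 25 of 44 other cells were detected and 11 of them reached the lowest of the 4.

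Of the other genes among the 25, Mylpf, which encodes a fast-muscle myosin light chain, was at 29.1 to 191.4 FPKM in the Zfp42/Tdh cells and reached 139.1 FPKM in C65. The X-linked Trap1a was at 49.3 to 128.3 FPKM in the Zfp42/Tdh cells, while 7 other cells were detected, the highest at 165.3 FPKM. Nup62cl, a relative of a nuclear pore gene, was at 30.2 to 35.2 FPKM in the 4 cells and at 37.75 FPKM in 1 other cell, with the remaining other cells listed at 0. For both Trap1a and Nup62cl the highest cell of all was outside the rule. Gatsl3 (Castor1), an arginine sensor upstream of mTORC1, was at 22.3 to 151.6 FPKM in the Zfp42/Tdh cells and was detected in 12 other cells at up to 99.5 FPKM. Gstp2, a glutathione S-transferase, ranged from 1.32 to 101.1 FPKM in the Zfp42/Tdh cells and was detected in 4 other cells, and the zinc finger gene Gm10324 ranged from 11.7 to 69.9 FPKM and was detected in 6 others. Ephx2, soluble epoxide hydrolase, was at 82.7, 5.83, 88.4 and 80.8 FPKM in C05, C09, C32 and C38 and was detected in 13 other cells at up to 55.2 FPKM. Alpl, tissue-nonspecific alkaline phosphatase, whose activity marks pluripotent and early germ cells, was named after its values were seen. Alpl was at 100.3, 52.98, 48.85 and 84.2 FPKM in the 4 cells, against a median of 1.20 FPKM and detection in 23 of 44 in the other cells.

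**Figure D2:**
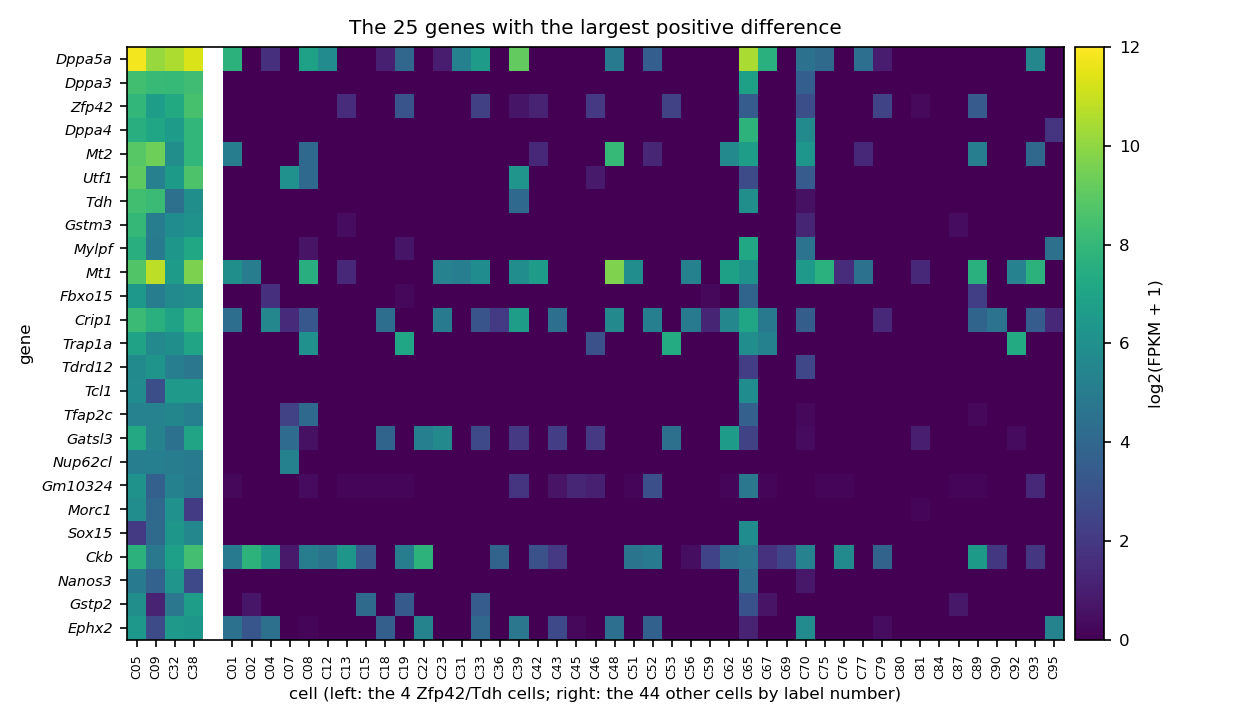
Rows are the 25 genes with the largest positive difference and columns are cells, the 4 Zfp42/Tdh cells to the left and the 44 other cells to the right, coloured by log2(FPKM + 1). The 4 cells are filled in every row, as the choice of genes requires, C65 is filled in most rows, and the other cells are mostly at 0.

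Leaving out Zfp42 and Tdh, 14 of the 23 remaining genes were detected in 5 or fewer of the 44 other cells. The 23 were chosen for their excess in the 4 cells, which favours genes rarely detected elsewhere. This count thus follows in part from the choice. Cells outside the rule held a median of 3 of the 23. The cell that differed most from its fellows was C65, with 20 of the 23, of which 11 were at or above the lowest of the 4 Zfp42/Tdh cells. It was followed by C70 with 12, C08 with 8 and C39 with 7. C65 also carried transcripts that were low in the Zfp42/Tdh cells. Brachyury (T), the streak and nascent mesoderm factor, was at 0, 0, 0.369 and 0 FPKM in C05, C09, C32 and C38 and at 76.9 FPKM in C65. Etv2, the factor that directs blood and endothelial fate, was listed at 0 in all 4 and at 29.98 FPKM in C65. Whether C65 held more than 1 cell was not tested.

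Over all 11601 genes the 4 cells were not sharply set apart. Spearman correlations of log2(FPKM + 1) across these genes were 0.631 to 0.668 (median 0.642) for the 6 pairs of Zfp42/Tdh cells, 0.512 to 0.644 (median 0.590) for the 176 pairs of a Zfp42/Tdh cell with another cell, and 0.475 to 0.665 (median 0.580) for the 946 pairs of other cells. These correlations are across genes, which are not independent, and cells with more detected genes share more non-zero values. The genes include Zfp42 and Tdh, and others that passed the filter only through the 4 cells. Closeness among the 4 is thus partly built in. For C05, C32 and C38 the most similar cell was another Zfp42/Tdh cell. For C09 it was C18, a cell outside the rule, at 0.644 against 0.642 for its closest Zfp42/Tdh cell.

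A list of 24 naive genes that leaves out Zfp42 and Tdh was set beside the label of naive pluripotency-like cells. The list was chosen with earlier results of these data known, so it is no independent check of the label. Only part of the list was higher in the Zfp42/Tdh cells. In all, 10 members were 4-fold or more higher in the Zfp42/Tdh cells and 0 were lower, where 1.62% of all 22505 symbols without short RNAs were 4-fold or more higher and 0.347% lower. Among them were Dppa5a, Dppa3, Mylpf, Fbxo15, Tcl1, Esrrb, Spp1, Klf2 and Tfcp2l1. The median difference over all 24 members was 1.48, against 0 over all symbols without short RNAs. It was 0.76 over the 5 members detected in at least 12 of the 48 cells. The filter on low values passed 16 members, but Dppa3, Esrrb, Tcl1 and Spp1 were among those that passed through the Zfp42/Tdh cells. Detection was complete in the 4 cells for 10 members and absent for 5. The list's mean log2(FPKM + 1) was 2.32 to 3.63 in the Zfp42/Tdh cells and 0.085 to 2.85 in the other cells, and C65 alone among the other cells reached the range of the 4.

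Esrrb, an orphan nuclear receptor at the centre of the naive network, was at 21.4, 17.3, 8.58 and 27.9 FPKM in C05, C09, C32 and C38, against at most 4.16 FPKM in the other cells. Klf2, a Krüppel-like factor of the same network, was uneven, at 25.2, 1.03, 41.4 and 7.27 FPKM in the 4 cells and at up to 19.8 FPKM in the other cells. Tfcp2l1, another naive factor, was at 10.1, 7.81 and 7.92 FPKM in C05, C09 and C38, at 0.087 FPKM in C32 and at up to 7.12 FPKM in the other cells. All 3 factors were thus detected in both C05 and C38, and C09 and C32 were each near the floor for 1 of them. Spp1, the secreted protein osteopontin, was at 59.65, 0, 9.10 and 41.2 FPKM in the 4 cells and was detected in 2 of the others at up to 50.6 FPKM.

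Klf4, the Krüppel-like factor downstream of STAT3, did not pass 4-fold, with a difference of 1.67. It was at 16.3, 14.96, 6.50 and 5.12 FPKM in C05, C09, C32 and C38, and 22 of 44 other cells were detected, at up to 62.5 FPKM. Several genes of the naive list were at or near 0 in most of the 4 cells. Fgf4, Pramel6 and Pramel7 were listed at 0 in all 4, and Pramel6 and Pramel7 in all 48. Nr0b1 (Dax1), a nuclear receptor corepressor, was at 33.5 FPKM in C05 and listed at 0 in the other 3 and in all 44 other cells. Prdm14, a factor of both naive cells and germ cells, was at 6.21 FPKM in C32 and listed at 0 in the other 3. Nr5a2, a nuclear receptor, was at 3.63 FPKM in C38 and below 1 FPKM in the other 3, Klf5 was at 0.553 FPKM in C32 and listed at 0 in the rest of the 4, and Pecam1, a surface marker of naive cells, was at most 0.368 FPKM in the 4. Tbx3, a T-box factor of naive cells that mesoderm also uses, had a difference of -1.21, with 1.52, 3.93, 0 and 0 FPKM in the 4 cells and a median of 4.04 FPKM in the other cells. Zfp57, which protects imprinted methylation, was at 4.37 to 100.7 FPKM in the Zfp42/Tdh cells and had a median of 34.2 FPKM in the others, a difference of -0.05.

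**Figure D3:**
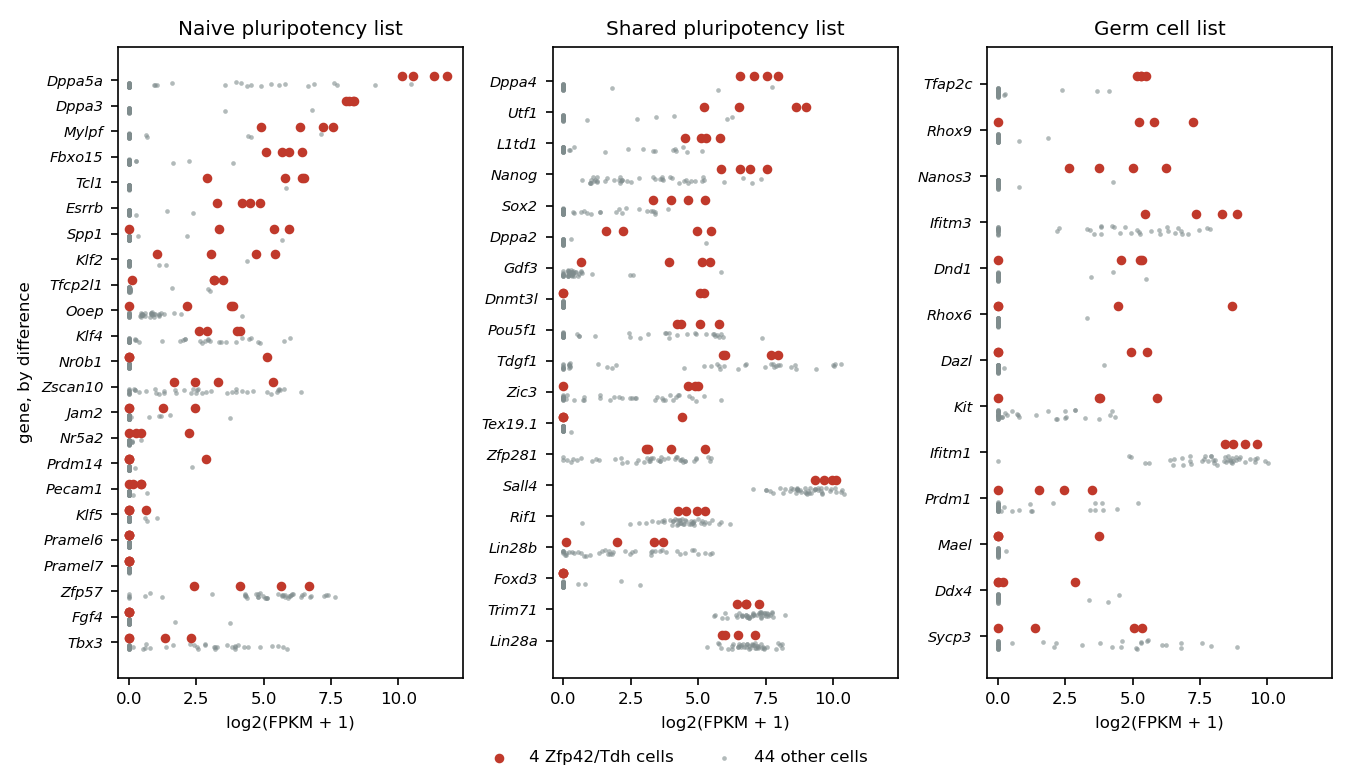
For the members reported here of the naive, shared pluripotency and germ cell lists, in order of the difference, large points give log2(FPKM + 1) in the 4 Zfp42/Tdh cells and small points the 44 other cells. Dppa5a, Dppa3, Utf1, Dppa4 and Tfap2c lead their lists, and Pramel6, Pramel7, Fgf4 and Foxd3 are at 0 in all 4 cells.

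Genes shared by naive and later pluripotent cells were also high. Of 19 such genes, 10 were 4-fold or more higher in the Zfp42/Tdh cells and 0 lower, and 13 were detected in all 4 cells. The share over all 22505 symbols was 1.62% higher and 0.347% lower. The list's median difference was 2.42 over all members and 1.23 over the 12 detected in at least 12 of the 48 cells. Its mean log2(FPKM + 1) was 4.41 to 5.04 in the Zfp42/Tdh cells and 1.41 to 3.82 in the other cells, with no other cell in the range of the 4. The summed FPKM of the list overlapped, at 1844 to 2250 in the Zfp42/Tdh cells and 395 to 2805 in the other cells, where members present in both carry much of the sum.

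Nanog was at 188.6, 56.2, 93.6 and 119.5 FPKM in C05, C09, C32 and C38, against a median of 5.31 and a highest value of 160.6 FPKM in the other cells, 42 of which were detected. Sox2 was at 37.1, 9.11, 14.9 and 23.96 FPKM in the 4 cells and at up to 13.9 FPKM in the other cells, so that 3 of the 4 lay above all others. Pou5f1 separated the cells least of the 3 core factors, at 17.5, 32.4, 53.8 and 19.5 FPKM in the 4 cells, against a median of 0.870 and a highest value of 165.2 FPKM in the other cells. The others of the list that passed 4-fold were Utf1 and Dppa4, L1td1 (difference 4.24), which encodes an RNA-binding protein derived from a retroelement, Dppa2 (3.43), the partner of Dppa4, the TGF-β family ligand Gdf3 (3.29), Dnmt3l, and the Nodal co-receptor Tdgf1 (2.42). Dppa2 was detected in all 4 cells, at 1.97 to 43.03 FPKM, and in 1 of the other 44. Dnmt3l, the cofactor of de novo DNA methylation, was at 32.3 FPKM in C09 and 36.3 FPKM in C38, and listed at 0 in C05, C32 and all 44 other cells.

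Members that embryonic cells keep beyond pluripotency differed little. Sall4, a zinc finger factor, was at 647.0 to 1100 FPKM in the Zfp42/Tdh cells and had a median of 518.5 FPKM in the other cells, a difference of 0.78. The RNA-binding protein gene Lin28a was at 57.9 to 136.8 FPKM in the Zfp42/Tdh cells and had a median of 123.0 FPKM in the other cells, a difference of -0.55. Trim71, a ubiquitin ligase and target of let-7, had a difference of -0.19. Both Lin28a and Trim71 were detected in all 48 cells. Foxd3, a forkhead factor of pluripotent and neural crest cells, was listed at 0 in all 4.

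The germ cell list was high in the same cells. Of its 13 members, 8 were 4-fold or more higher in the Zfp42/Tdh cells, 0 were lower, and all 13 differences were positive, where 1.62% of all 22505 symbols were higher and 0.347% lower. The median difference was 2.53 over all members. The filter on low values passed 12 members, of which Nanos3, Rhox6, Rhox9 and Dazl passed through the Zfp42/Tdh cells. The list's mean log2(FPKM + 1) was 2.61 to 4.804 in the Zfp42/Tdh cells and 0.394 to 2.19 in the other cells, with no overlap. Only 4 members, Tfap2c, Nanos3, Ifitm3 and Ifitm1, were detected in all 4 cells. Ifitm3 (Fragilis), an interferon-induced membrane protein of early germ cells, was at 162.0, 43.5, 314.0 and 464.2 FPKM in C05, C09, C32 and C38, against a median of 13.3 FPKM and a highest value of 234.5 FPKM in the other cells. Dnd1, a germ line RNA-binding protein, was at 38.1, 0, 22.8 and 39.7 FPKM in the 4 cells and was detected in 3 others at up to 44.3 FPKM.

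C09 was listed at 0 for 6 of the other 9 germ cell genes. The X-linked homeobox gene Rhox9 was at 149.8, 0, 37.1 and 53.8 FPKM in C05, C09, C32 and C38 and at most 2.67 FPKM in the other cells. Its relative Rhox6 was at 410.7, 0, 0 and 20.7 FPKM in the 4 cells and at most 8.90 FPKM in the other cells. Kit, the receptor for stem cell factor on migrating germ cells, was at 12.3, 0, 12.8 and 58.4 FPKM in the 4 cells and at up to 19.2 FPKM in the other cells. Each of these 3 genes was listed at 0 in C09 and was present in C05 and C38. Dazl, a translational regulator of germ cells, was at 29.5 FPKM in C32 and 45.8 FPKM in C38, and listed at 0 in C05 and C09, while C65 alone among the others was detected, at 14.3 FPKM.

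Prdm1 (Blimp1), the repressor that begins germ cell specification, was at 10.3, 4.54, 0 and 1.85 FPKM in C05, C09, C32 and C38 and was detected in 11 other cells at up to 36.2 FPKM. The remaining members did not pass 4-fold. The RNA helicase gene Ddx4 (Vasa) had a difference of 0.50, with 6.32 FPKM in C09 and less than 1 FPKM in the other 3. Sycp3, of the meiotic synaptonemal complex, had a difference of 0.46, and 21 other cells were detected. Mael, a piRNA pathway gene, was at 12.5 FPKM in C38 and listed at 0 in the other 3. Ifitm1 had a difference of 1.20 and was detected in 43 of the 44 other cells. Because germ cell genes and naive genes were both high, no cell type name is given to the 4 cells. Several genes of the naive list were at or near 0 in most of the 4, but a value of 0 can be a missed transcript. Pramel6 and Pramel7 were at 0 in every cell.

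Most lists for other cell types that might carry single pluripotency genes were near 0 in the 4 cells and had low medians in the other cells. Of all values 66.1% were 0, and the share of all genes undetected in the 4 cells was not counted. Counts of undetected members are therefore a description only. All 10 genes of 2-cell-like cells, the Zscan4 genes and Dux among them, were listed at 0 in the 4 cells, but 7 of them were at 0 in all 48 cells and 9 were detected in no cell. Of 9 trophoblast genes, 8 were undetected in the 4 cells, the exception being Plac1 in C09, and 4 were detected in no cell at all. The list summed to 0 to 12.002 FPKM, against a median of 4.74 and up to 90.4 FPKM in the other cells. Of 11 primitive endoderm genes, 10 were undetected in the 4 cells, the exception being Dab2 in C09, and 4 were detected in no cell. That list summed to 0.484 to 9.83 FPKM, against a median of 3.51 and up to 57.6 FPKM in the other cells. Sox17, Hnf4a, Afp, Ttr and Cdx2 were each below 1 FPKM in all 4, but Hnf4a and Afp were at 0 in every cell. Sox17 and Ttr reached 1 FPKM in 1 other cell each, and Cdx2 in 3. Feeder fibroblast genes, which would mark carried-over support cells, were undetected in the 4 for 9 of 10, and 2 were detected in no cell. They summed to 0 to 4.48 FPKM, against 0 to 70.7 FPKM (median 1.36) in the other cells. Col1a1, Col1a2 and Col3a1 were listed at 0 in the 4, and were detected in 2, 10 and 1 of the other cells. Neurectoderm genes summed to 18.1 to 59.5 FPKM in the Zfp42/Tdh cells and 22.001 to 299.8 FPKM in the other cells. Sox11 was detected in all 48 cells, and the largest sums came from Fabp7, at 43.6 FPKM in C32 and 253.1 FPKM in C65.

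Genes of the formative and primed stages, which follow the naive state, were not higher as a list. Of 10 members, 0 were 4-fold or more higher and 0 lower, with a median difference of -0.26 over all members. Otx2, the homeobox factor that drives exit from the naive state, split the 4 cells, at 0, 0, 51.5 and 77.7 FPKM in C05, C09, C32 and C38, and was detected in 22 other cells. Fgf5, a marker of the postimplantation epiblast, was at 20.5 FPKM in C38 and listed at 0 in the other 3. The de novo methyltransferase Dnmt3b was at 8.30, 69.8, 49.3 and 80.8 FPKM in the 4 cells, against a median of 24.9 FPKM in the other cells. Its relative Dnmt3a was the member with the largest difference, -1.45, at 0.192 to 5.85 FPKM in the Zfp42/Tdh cells and a median of 9.07 FPKM in the other cells.

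Several of the higher genes lie beside each other in the genome. Of 52 named genes that were 4-fold or more higher and have coordinates in GENCODE M21 on GRCm38, 9 had another of them within 500 kb, in 10 pairs. On chromosome 6, Gdf3, Dppa3, Nanog and Slc2a3 occupy chr6:122605403-122801640, a stretch of 196 kb that holds no other gene with values. Its ends were set by these higher genes, so that all 4 were higher follows in part from its limits. Apobec1, just outside at chr6:122577792-122602444, was not 4-fold or more higher. Dppa3 itself lies on the plus strand at chr6:122626410-122630272. On chromosome 16, Dppa4, Dppa2 and Morc1 lie within chr16:48283733-48630900, a stretch of 347 kb whose ends they likewise set. Its only other gene with values, Gm5485, was listed at 0 in all 48 cells. Mt2 and Mt1 on chromosome 8 are 5.51 kb apart. The higher genes were not compared with random sets of genes, since the lists themselves name several of these neighbours. Slc2a3, the glucose transporter GLUT3, was at 27.6, 18.2, 59.8 and 170.3 FPKM in C05, C09, C32 and C38, against a median of 1.88 FPKM and a highest value of 126.7 FPKM, in C65, in the other cells.

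The induced gene, Mesp1, was present on both sides. It was at 15.3, 19.4, 24.5 and 0 FPKM in C05, C09, C32 and C38, against a median of 7.10 and a highest value of 254.1 FPKM in the other cells, of which 27 of 44 were detected. Its mean log2(FPKM + 1) was 3.26 ± 2.19 (SD, n = 4 cells) in the Zfp42/Tdh cells and 2.93 ± 2.55 (SD, n = 44 cells) in the other cells, a difference of 0.34. The sides overlapped fully, and 3 of the 4 Zfp42/Tdh cells carried Mesp1. The value does not separate the doxycycline-driven gene from the endogenous one, and the doxycycline period had ended before the cells were taken.

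The primitive streak list was mixed in the Zfp42/Tdh cells. Of 14 members, 0 were 4-fold or more higher and 2 were lower, T (difference -2.98) and Cer1 (-2.47). Over all 22505 symbols without short RNAs, 1.62% were higher and 0.347% lower. T was at most 0.369 FPKM in the 4 cells, against a median of 3.47 and a highest value of 473.1 FPKM in the other cells, where 26 of 44 were detected. Cer1, a secreted inhibitor of Nodal, BMP and Wnt, was at most 0.463 FPKM in the 4 cells, and was detected in 17 other cells at up to 1435 FPKM. Since 18 of 44 other cells also had T below 1 FPKM, low T was common on both sides. Eomes, the T-box factor upstream of Mesp1 in the embryo, was present in all 4 cells at 26.3, 12.44, 107.4 and 99.8 FPKM, against a median of 22.6 FPKM in the other cells. The streak homeobox gene Mixl1 was at 0, 41.6, 50.1 and 21.7 FPKM in the 4 cells, against a median of 20.5 FPKM in the other cells, and Wnt3, the signal that starts the streak, was at 3.81 to 29.3 FPKM in the Zfp42/Tdh cells, a difference of 1.71. The median difference over the 13 members past the filter was -0.15, and it was 0.34 without C05 and -0.44 without C32.

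Transcripts of cardiac and lateral plate mesoderm were found in the Zfp42/Tdh cells beside the pluripotency genes. Of 16 members 1 was 4-fold or more higher, Myl7, and 0 were lower, where 1.62% of all 22505 symbols were higher and 0.347% lower. Myl7, the atrial myosin light chain, was at 199.8, 0, 51.3 and 25.4 FPKM in C05, C09, C32 and C38 and was detected in 14 other cells at up to 753.5 FPKM. The GATA factor of heart and endoderm Gata6 was at 4.76, 39.99, 68.9 and 10.2 FPKM in the 4 cells, against a median of 8.73 FPKM in the other cells. Gata4, its partner, was at 20.02, 42.3, 49.2 and 0.228 FPKM in the 4 cells, against a median of 5.61 FPKM in the other cells. These values lie within the range of the other cells. Hand1, a factor of early lateral plate and heart, was at 4.60, 48.3, 25.2 and 0 FPKM in the 4 cells, and Isl1, of second heart field progenitors, at 0, 23.8, 16.5 and 0 FPKM. In C09 and C32 all 4 of these factors were detected, and in C38 only Gata6 was. The largest negative differences were those of Fgf10 (-1.96), Bmp4 (-1.50) and the mesoderm receptor Pdgfra (-1.37), none past 4-fold. The median over the 15 members past the filter was -0.08, and ranged from -0.45 without C05 to 0.16 without C38.

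Blood and endothelial genes and paraxial mesoderm genes both overlapped between the sides. Of 14 blood and endothelial genes, 11 were undetected in all 4 cells, of which 3 were detected in no cell at all. Each of the 4 held 6570 to 6989 of 22505 genes, and the share of all genes undetected in all 4 was not counted. Counts of undetected members, here and below, are therefore a description only. The list's mean log2(FPKM + 1) was 0.0945 to 0.539 in the 4 cells and 0 to 3.02 in the other cells. Of those, 39 were at or above the lowest of the 4. Only 1 gene, Etv2 (difference -2.86), was 4-fold or more lower, where 0.347% of all 22505 symbols were. Etv2 was listed at 0 in all 4, against a median of 3.19 and a highest value of 906.8 FPKM in the other cells, 26 of which were detected. Gata2, a factor of blood progenitors, was listed at 0 in the 4 and was detected in 15 of the other cells, a difference of -1.62. Kdr, the VEGF receptor of these progenitors, was at 14.5 FPKM in C05 and 1.41 FPKM in C32. In the paraxial mesoderm list 0 of 16 genes passed 4-fold in either direction, and 8 were undetected in all 4 cells. That list's mean log2(FPKM + 1) was 0.568 to 1.34 in the Zfp42/Tdh cells and 0 to 3.07 in the other cells. Among the other cells 27 were at or above the lowest of the 4. Cyp26a1, the enzyme that degrades retinoic acid, had the largest difference there, 1.95, at 10.4, 152.7, 84.4 and 246.6 FPKM in C05, C09, C32 and C38, against a median of 36.6 FPKM in the other cells. Aldh1a2, which makes retinoic acid, had a difference of -1.38 and was at 15.99 FPKM in C09 and listed at 0 in the other 3.

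**Figure D4:**
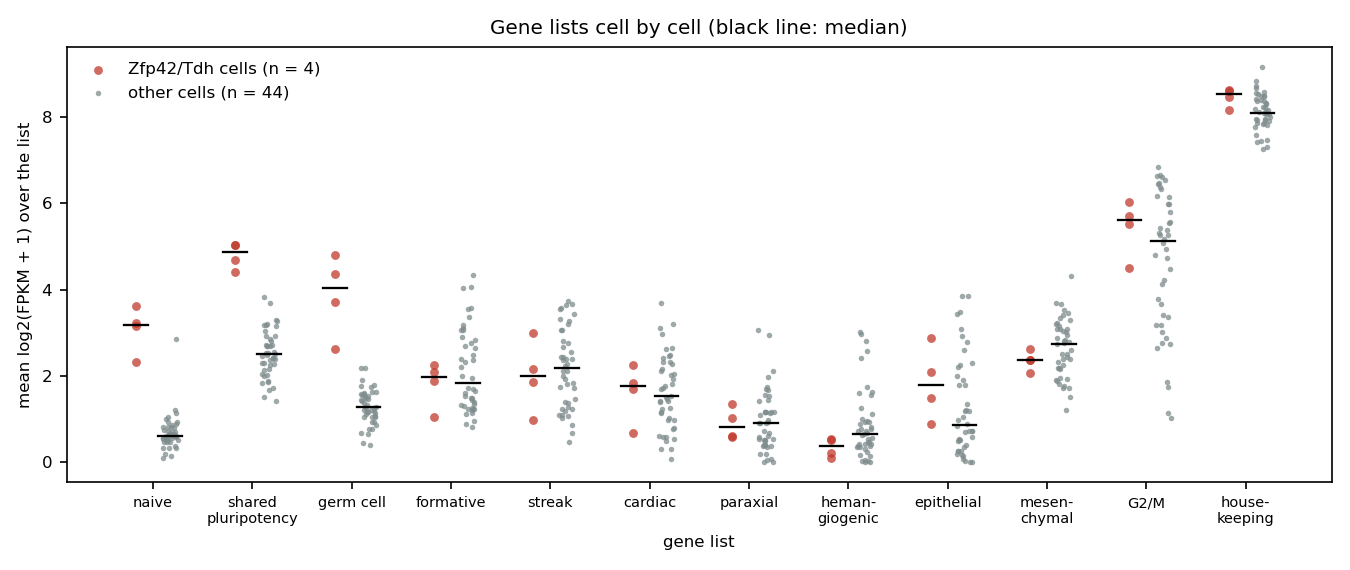
Each point is the mean log2(FPKM + 1) over a gene list in 1 cell, with the 4 Zfp42/Tdh cells left of the 44 other cells in each list and black lines at the medians. The shared pluripotency and germ cell lists do not overlap between the sides, C65 alone overlaps in the naive list, and the mesodermal lists overlap widely.

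Epithelial genes had a positive median difference. Of 14 members 1, Epcam (difference 2.83), a surface adhesion protein of embryonic stem cells and epithelia, was 4-fold or more higher, and 0 were lower. The share over all 22505 symbols was 1.62% higher and 0.347% lower. Epcam was at 32.3, 2.28, 59.3 and 8.21 FPKM in C05, C09, C32 and C38 and was detected in 13 other cells at up to 71.2 FPKM. E-cadherin (Cdh1) was detected in all 4 cells, at 2.25, 4.67, 2.65 and 10.8 FPKM, and in 14 of the 44 others at up to 134.0 FPKM. The keratin pair Krt8 and Krt18 went the other way in 3 of the 4 cells. Krt8 was at 7.41, 0, 0 and 157.9 FPKM and Krt18 at 6.89, 0.348, 0 and 259.1 FPKM in the 4 cells, against medians of 19.6 and 16.9 FPKM in the other cells. The median difference over the 13 members past the filter was 1.17, and it was 0.43 without C38, 0.71 without C32 and 0.77 without C05.

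Of 13 mesenchymal genes, 0 passed 4-fold in either direction, and the median over the 12 past the filter was -0.40. Without C32 it was -0.25. N-cadherin (Cdh2), which replaces E-cadherin as mesoderm forms, was at 4.82, 1.53, 5.07 and 25.5 FPKM in C05, C09, C32 and C38, against a median of 25.9 FPKM in the other cells, a difference of -1.57. Vimentin (Vim) was at 51.1, 33.4, 65.7 and 19.5 FPKM in the 4 cells, against a median of 106.7 FPKM in the other cells, a difference of -1.01. All 4 cells were below the median of the other cells for both genes, and within their range. Itga5, the fibronectin receptor subunit, was listed at 0 in the 4 and was detected in 19 of the others. Other members went the opposite way. Sparc, a matrix-binding protein, was at 103.0, 13.9, 38.1 and 66.02 FPKM in C05, C09, C32 and C38, against a median of 26.4 FPKM in the other cells, a difference of 1.38. Twist1 and Zeb1, both repressors of E-cadherin, had differences of 0.59 and 0.39.

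Mdk was the 1 gene for which all 4 cells lay below every other cell. It encodes midkine, a secreted heparin-binding growth factor abundant in mid-gestation embryos. It was at 148.2, 264.1, 343.7 and 163.7 FPKM in C05, C09, C32 and C38, against 533.6 to 2440 FPKM (median 1104) in the other cells. Its mean log2(FPKM + 1) was 7.77 ± 0.57 (SD, n = 4 cells) in the Zfp42/Tdh cells and 10.03 ± 0.50 (SD, n = 44 cells) in the other cells, a difference of -2.26. C65 lay with the other cells, at 739.3 FPKM. Unlike most lower genes, Mdk was detected in all 48 cells, so that its difference does not rest on values of 0.

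Among the 20 genes with the largest negative difference, all detected in at least 22 other cells, most of the Zfp42/Tdh values were at or near 0. Surf1, a cytochrome c oxidase assembly factor, was listed at 0 in all 4 cells, against a median of 27.3 and a highest value of 172.3 FPKM in the other cells, of which 26 were detected. Tmem98, a membrane protein gene, was listed at 0 in all 4 and was detected in 26 of the others. Ccnd2, cyclin D2, was at 2.06, 0, 0 and 0.849 FPKM in C05, C09, C32 and C38, against a median of 15.4 FPKM in the other cells, of which 34 were detected. No more than 1 of the 4 cells reached 1 FPKM in any of these 3 genes. Mfap2, a microfibril protein of the extracellular matrix, was at 1.67, 29.5, 8.76 and 0 FPKM in the 4 cells, against a median of 71.1 FPKM in the other cells. Pfn2, a profilin of the actin cytoskeleton, was at most 0.192 FPKM in the 4, against a median of 6.15 FPKM in the other cells.

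In several of the 20, 1 Zfp42/Tdh cell stood far above the other 3. Hyal2, Rbmx, Snx17 and Th1l were highest in C09, Eno3 in C32, and Prpf39 and Ptp4a1 in C05, and Pitrm1 was at 33.2 FPKM in C05 and at most 5.92 FPKM in the other 3. Eno3, the muscle enolase, was at 44.1 FPKM in C32 and listed at 0 in the other 3, against a median of 47.2 FPKM in the other cells. Maged2 was at 23.9, 46.3, 0 and 0 FPKM in C05, C09, C32 and C38, against a median of 64.7 FPKM in the other cells. The antiproliferative gene Btg2 was at 0, 10.5, 2.84 and 0.779 FPKM, and the linker histone gene H1f0 at 0, 3.93, 0 and 1.29 FPKM in the 4 cells, against medians of 35.9 and 10.7 FPKM in the other cells. Slc35a1, the CMP-sialic acid transporter, was at 0 to 16.3 FPKM in the Zfp42/Tdh cells and had a median of 33.2 FPKM in the other cells.

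**Figure D5:**
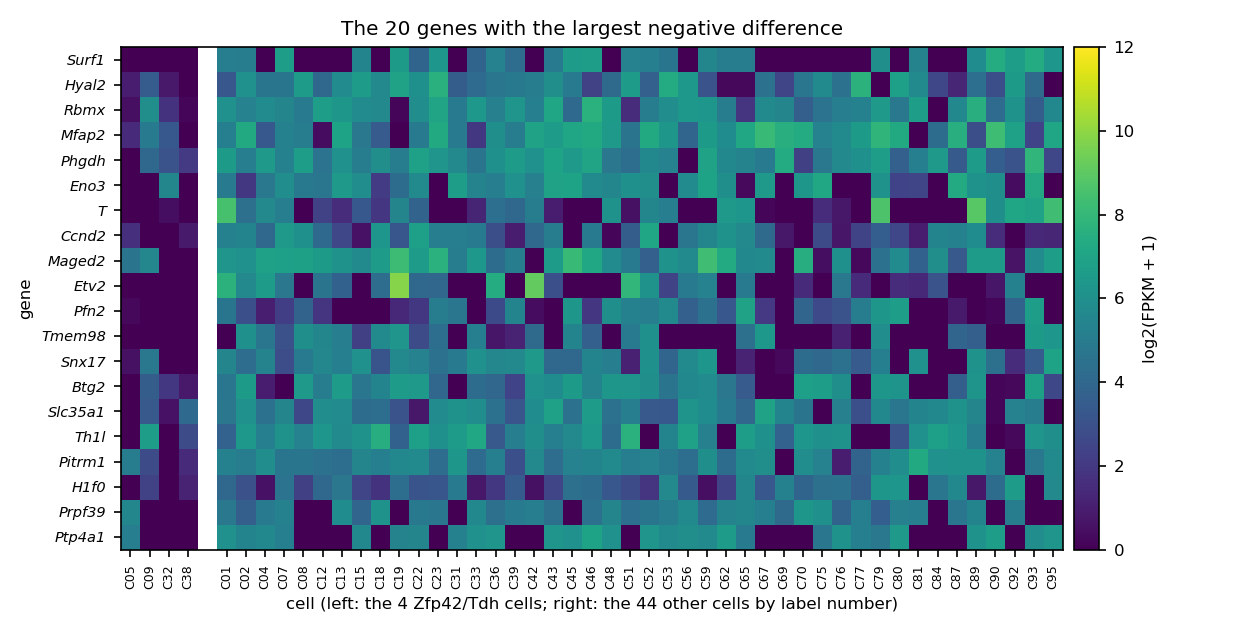
Rows are the 20 genes with the largest negative difference, columns are cells as in the plot of the highest genes, and colour is log2(FPKM + 1). Surf1, Etv2 and Tmem98 are at 0 in all 4 Zfp42/Tdh cells, and several other rows are filled in 1 of the 4.

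Threonine and one-carbon metabolism, the pathway around Tdh, was split. Tdh chose the cells and is left out of the list of 13. Over all 22505 symbols, 1.62% were 4-fold or more higher and 0.347% lower. Shmt1, the cytosolic enzyme that interconverts serine and glycine, was 4-fold or more higher, at 168.2, 59.1, 127.0 and 173.5 FPKM in C05, C09, C32 and C38, against a median of 37.7 and a highest value of 179.9 FPKM in the other cells. Gldc, of the mitochondrial glycine cleavage system, passed 4-fold with a difference of 2.14, at 31.9, 1.797, 1.86 and 28.5 FPKM in the 4 cells and a median of 0.101 FPKM in the other cells. Gldc was high in C05 and C38 and low in C09 and C32. Phgdh, the first enzyme of serine synthesis, was 4-fold or more lower (difference -3.10), at 0, 15.6, 7.49 and 3.16 FPKM in the 4 cells, against a median of 48.4 FPKM and detection in 43 of 44 in the other cells. Gcat, which completes threonine breakdown after Tdh, was at 5.25 to 37.7 FPKM in the Zfp42/Tdh cells and had a median of 23.02 FPKM in the other cells, a difference of 0.18. The median difference over the list was -0.04. Of the 13 glycolysis genes found, Slc2a3 alone passed 4-fold, and lactate dehydrogenase A (Ldha) had a difference of -1.07.

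Signalling lists held few genes past 4-fold, where 1.62% of all 22505 symbols were higher and 0.347% lower. In the list of 8 LIF and STAT3 genes, whose pathway keeps mouse embryonic stem cells naive, 0 passed in either direction, and the median difference was 0.67. The largest differences were those of Il6st (1.51), the gp130 receptor subunit, the kinase genes Pim3 (1.28) and Pim1 (0.96), and Lifr (0.85), the LIF receptor. Socs3, the pathway's feedback inhibitor, was listed at 0 in all 4 cells and was detected in 5 of the 44 others. Junb was listed at 0 in all 4 cells and was detected in 14 of the others. Of 9 Nodal pathway genes Tdgf1 was higher and the activin receptor Acvr2b lower (difference -2.04), with 23.4 FPKM of Acvr2b in C32 and less than 1 FPKM in the other 3. Nodal itself was at 0, 8.65, 2.53 and 6.32 FPKM in C05, C09, C32 and C38 and was detected in 5 of the other cells. Of 9 FGF feedback genes 1 was higher, the ETS factor Etv5 (2.31), at 141.5, 9.15, 23.3 and 68.5 FPKM in the 4 cells, against a median of 6.52 FPKM in the other cells, while Dusp6, the ERK phosphatase, had a difference of -1.50. Of 9 BMP and Id genes 1 was lower, Id2 (-2.51), an inhibitor of basic helix-loop-helix factors, at 0, 29.5, 38.3 and 25.6 FPKM in the 4 cells, against a median of 171.7 FPKM in the other cells. Id1 and Id3 had differences of -0.14 and -0.15. Among 8 Wnt genes 0 passed in either direction, and Lef1 (-1.40), a mediator of Wnt signals, was at 151.4 FPKM in C32 and at most 3.32 FPKM in the other 3.

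In the list of 8 DNA methylation genes Dnmt3l was the member past 4-fold. Tet1, a dioxygenase that oxidises methylcytosine, came near with a difference of 1.97, at 13.7, 5.87, 6.20 and 22.7 FPKM in C05, C09, C32 and C38, against a median of 1.18 FPKM in the other cells. The maintenance methyltransferase Dnmt1 differed by 0.03 and its partner Uhrf1, which early germ cells repress, by -0.33. Both were detected in all 4 cells. Uhrf1 was at 65.6 to 97.9 FPKM in the Zfp42/Tdh cells and had a median of 98.4 FPKM in the other cells.

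Genes of the cell cycle, of stress and of general upkeep held few members past 4-fold. The share over all 22505 symbols was 1.62% higher and 0.347% lower. All 10 S-phase genes were detected in the 4 cells and 0 passed 4-fold, with a median difference of 0.56. Of 10 G2 and M genes 1 was higher, Aurkb (2.11), the chromosomal passenger kinase, and the median was 1.17. Of 13 stress and apoptosis genes 1 was lower, the immediate early gene Egr1 (-2.03), at 0, 6.77, 29.5 and 2.63 FPKM in C05, C09, C32 and C38, against a median of 46.1 FPKM in the other cells. Of 10 housekeeping genes 0 passed 4-fold, and all 10 were detected in the 4 cells. The largest differences belonged to less abundant members, Hprt (1.58), Sdha (1.58) and Tbp (1.01). Hprt was at 23.01, 15.6, 5.85 and 16.3 FPKM in C05, C09, C32 and C38, and 27 of 44 other cells were detected, with a median of 3.72 FPKM. Like the number of detected genes, these values move with the Zfp42/Tdh cells, and their part in the differences of other low genes was not tested. The most abundant members had small differences. Actb was at 2363, 2728, 2614 and 3680 FPKM in the 4 cells, against 1379 to 5569 FPKM (median 2974) in the other cells. Gapdh was at 776.6, 754.7, 837.7 and 640.7 FPKM in the 4 cells, against 269.5 to 1335 FPKM (median 746.8) in the other cells. The median difference over the housekeeping list was 0.04.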

How the data were processed

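RNA from 48 single cells was measured by sequencing, and the authors deposited 1 table of 23746 rows with a column per cell. Its values were treated as FPKM, since Cufflinks 2.2.1.0 is named in the submitters' processing notes. These also list build mm10, TopHat 0.7 and CASAVA 1.8.2 without saying what each did. The sources used here do not give read filters, annotation or scaling between cells. FPKM deposited by the authors hold no read numbers, the depth of each cell is unknown, and levels carry no interval. A value of 0 can be a missed transcript, and 66.1% of values were 0.

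Rows of the same symbol were summed (240 symbols on several rows, 23284 symbols in all), and 779 symbols of short RNAs were left out of the comparisons, leaving 22505. Of these, 11601 reached 1 FPKM in at least 3 cells. Each difference was the mean log2(FPKM + 1), pseudocount 1 FPKM, of the 4 cells minus that of the other 44. No test was run: the labels give 1 group, and the same values chose the cells. No cell was removed, and doublets could not be recognised.

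Named genes were Zfp42, Tdh and Mesp1, the 25 largest positive differences among genes detected in all 4 cells, the 20 largest negative ones among genes detected in at least 22 other cells, up to 10 members of each pluripotency list and up to 4 with the largest absolute difference of each other list. Further names, such as Mdk, Inpp5d, Mageb16, Alpl, Klf4, Nr0b1, Prdm1, Krt8, Vim, Gata4, Mixl1, Socs3, Nodal, Gcat and the housekeeping genes, were chosen after their values were seen. The members, the 27 gene lists (322 entries, 321 found) and the thresholds were chosen with earlier results of these data known. The script was tested on simulated data. Python 3.11.15, pandas 2.3.3, numpy 2.4.6 and matplotlib 3.10.9 were used. Alternatives covered the pseudocount, the filter, the scaling, the choice of other cells, the summary per side, the rule and each of the 4 cells left out. In addition, 1 naive list member is counted in the list values but not reported here by name.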

Additional observations from a re-analysis of the deposited data

Results flagged for a closer look

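Among the named genes, 153 could be checked for 1 of the 4 Zfp42/Tdh cells standing far from the other 3, by a gap to the nearest cell that exceeds Dixon's 95% critical value for 4 values, as a share of their range. The criterion was met by 30 genes, 29 for a high cell and 1 for a low cell, where chance gives about 1 in 20 groups for values that are normally spread, which FPKM with many values of 0 are not. Which cell stood out was C09 in 12 genes, C38 in 7, C32 in 6 and C05 in 5.

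The 1 low value was Ephx2 in C09, at 5.83 FPKM. C09 was the high cell for Hyal2 (10.3 FPKM), Rbmx (60.4 FPKM), Snx17 (27.3 FPKM), Th1l (102.7 FPKM), Plac1 (11.9 FPKM), Dab2 (9.69 FPKM), Aldh1a2 (15.99 FPKM), Foxc2 (4.30 FPKM), Pim3 (21.96 FPKM), Pim1 (24.2 FPKM) and Ddx4 (6.32 FPKM). Plac1 and Dab2 are markers of trophoblast and primitive endoderm, and C09 was the only Zfp42/Tdh cell in which either list had a detected member.

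C32 was the high cell for Eno3 (44.1 FPKM), Fabp7 (43.6 FPKM), Acvr2b (23.4 FPKM), Lef1 (151.4 FPKM), Atf3 (51.8 FPKM) and Prdm14 (6.21 FPKM). C05 was high for Prpf39 (44.7 FPKM), Ptp4a1 (34.01 FPKM), Esrp1 (21.4 FPKM), Nr0b1 (33.5 FPKM) and Kdr (14.5 FPKM). C38 was high for the keratin genes Krt8 (157.9 FPKM) and Krt18 (259.1 FPKM), which form 1 filament pair, and for Cdh2 (25.5 FPKM), Sdha (160.6 FPKM), Nr5a2 (3.63 FPKM), Fgf5 (20.5 FPKM) and Mael (12.5 FPKM). C38 was also the 1 of the 4 with a short-RNA share under 5%, at 2.69%, and whether this plays a part was not tested.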

How the results depend on the processing

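No named gene past 4-fold changed direction under any setting run, and all 25 highest genes stayed past 4-fold in each. Of the 20 lowest genes, 18 to 20 did. These genes were chosen by their differences in the same cells, so their staying past 4-fold is partly built in. The filters do not enter a gene's own difference, and the looser rule and Zfp42 alone gave the same 4 cells. Those settings could therefore move no named gene. No paired analysis was possible because there is 1 group and no test. The numbers of genes 4-fold higher and lower were 1351 and 398 with a pseudocount of 0.1 FPKM, 844 and 180 with the median per side, and 1461 and 573 with C38 alone, and 141 were lower after rescaling each cell without short RNAs. Higher genes were 82.1% of those past 4-fold, and 72.6% and 71.8% against other cells with a like number of detected genes or with a number up to 48. The median over all genes was 0.25 with a pseudocount of 0.1 FPKM and -0.14 with C38 alone. Genes above every other cell numbered 1, Zfp42 itself, among genes detected in at least 12 cells. They numbered 19 against the 27 other cells with a like number of detected genes, and 32 against the 21 with a number up to 48. The number was 21 without C65 and 257 with C38 alone. The naive median over the 16 members past the filter was 3.44, and it was 5.997 with a pseudocount of 0.1 FPKM, 1.74 with no filter (over the 22 members above 0 in any cell) and 0.76 among genes detected in at least 12 cells. The shared pluripotency median was 2.50 over the 16 members past the filter, 3.67 with a pseudocount of 0.1 FPKM, 1.23 among genes detected in at least 12 cells, 1.78 against cells numbered up to 48, 3.27 with the median per side and 3.06 with C38 alone. The paraxial median was 0.29 among genes detected in at least 12 cells, the mesenchymal one -0.11 with the median per side, and the epithelial one 2.33 with C38 alone. The cause of these shifts was not tested.

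Leaving out each of the 4 cells in turn gave 419 to 535 higher and 108 to 122 lower genes, 11 to 42 above every other cell, and medians of 2.86 to 4.17 (naive), 2.16 to 2.76 (shared), 0.43 to 1.05 (epithelial), -0.55 to -0.25 (mesenchymal), -0.44 to 0.34 (streak), -0.45 to 0.16 (cardiac) and -0.49 to -0.15 (paraxial). The settings without C65 and with C38 alone were chosen after seeing the data. Of 186 named genes, the pseudocount moved 80 by more than their spread among the 4 cells. Leaving out 1 of the 4 cannot shift their mean by that much, so this measure cannot show dependence on single cells. Unknown depth limits values near 0.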
